A study of Homo sapiens with 48 samples.

Results

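The stability of mRNAs was compared between Kelly and NGP, human neuroblastoma cell lines that the labels call MYCN-amplified, in cells that received no METTL3 inhibitor. The members were chosen by treatment and time: the DMSO libraries at 0 h and 6 h of actinomycin D, which are 16 of the 48 libraries of the series. They form 8 groups of 2, one for each line, each DMSO duration (3 or 6 days) and each actinomycin D time. All cells carried the genotype WT. The 6 h groups received actinomycin D at 10 µg/ml, and the 0 h groups, at 0 µg/ml, stand for the start of that incubation. The other libraries used below are the 16 at 0 h and 6 h from cells given 8 µM STM2457, an inhibitor of the m6A writer METTL3, and the 8 DMSO libraries at 3 h. Each line is a single culture model of 1 tumour, so a difference between them belongs to these lines, and fewer cells of a kind and less RNA per cell cannot be told apart in bulk RNA.

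Actinomycin D intercalates into DNA and blocks transcription, so the mRNA that remains after some hours reflects how fast each message is degraded. Most mRNAs are shortened from the poly(A) tail by deadenylases, decapped and digested, and sequence elements of the 3′ untranslated region (UTR) recruit proteins or microRNAs that speed up or slow down these steps. Messages for transcription factors and cell cycle regulators tend to be short-lived, while those for metabolic enzymes and ribosomal proteins tend to be long-lived. In neuroblastoma, the adrenergic transcription factors such as HAND2, GATA3 and ISL1 define the dominant cell state.

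The 16 libraries held 11993189 to 21942238 fragments in genes. In Kelly the mitochondrial genes took 5.32 to 7.38% of the fragments at 0 h and 3.22 to 4.93% at 6 h; in NGP they took 4.03 to 5.25% and 3.63 to 4.44%. Levels are given as CPM, counts per 1000000 fragments, for these markers of the library without scaling factors and elsewhere of the scaled library. The adrenergic markers fitted the labelled origin. All 10 genes of adrenergic neuroblastoma identity had a mean of at least 1 CPM at 0 h in Kelly and 9 did in NGP. Their summed levels were 9653 to 10265 and 3301 to 3936 CPM. Of 12 blood and endothelial markers, 2 reached that level in Kelly and 1 in NGP, and HBB and HBA1 were at 0 in every 0 h library. Of 12 mesenchymal and fibroblast markers, 8 reached it in each line, with TWIST1 the highest at 111 CPM in Kelly and 252 CPM in NGP. Summed, they ranged from 186 to 344 CPM in Kelly and from 436 to 583 in NGP. Of 8 Schwann and epithelial markers, 2 reached 1 CPM in each line, with sums of up to 6.79 CPM in Kelly and 9.29 CPM in NGP. The part of these marker differences in the results below was not tested.

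The question was which transcripts were lost at different rates. For every gene the log2 change from 0 h to 6 h was taken in each line, and the decay difference is the change in NGP minus the change in Kelly, so that a positive value means slower loss in NGP. Changes are relative to the typical gene, because library sizes were scaled by TMM, a method that sets the bulk of genes to no change; a value above 100% of the starting level therefore means loss slower than that of the typical gene. Of 11823 genes tested, 256 differed between the lines (2.17%; edgeR's quasi-likelihood test, Benjamini-Hochberg adjusted p under 0.05). Loss was slower in NGP for 190 of them (1.61%) and faster for 66 (0.558%). This balance turned with the scaling: 64 were slower and 77 faster with scaling to long-lived genes, and 13 and 26 with scaling to ERCC spike-ins. For scale, 5756 genes (48.7%) changed over 6 h in Kelly and 5852 (49.5%) in NGP.

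Among the 190 genes with slower loss in NGP, the median gene kept 53.2% of its starting level in Kelly and 90.2% in NGP, and the median decay difference was 0.70 against 0.06 over all genes. In 84 of them the level fell in both lines, in 55 it fell in Kelly alone by the test, in 13 it fell in Kelly and rose in NGP, in 30 it rose in NGP alone, and in 8 it rose in both. Among the 66 with faster loss in NGP the median gene kept 107% in Kelly and 47.3% in NGP, with a median difference of -0.97. Here 26 fell in NGP alone, 19 fell in both lines, 10 rose in Kelly and fell in NGP, and 11 rose in Kelly alone. The decay difference exceeded 1 on the log2 scale, in either direction, for 39 of the first and 32 of the second set. The starting level itself differed at 0 h for 101 of the 190 genes and 41 of the 66, against 46.1% of all genes tested.

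**Figure D1:**
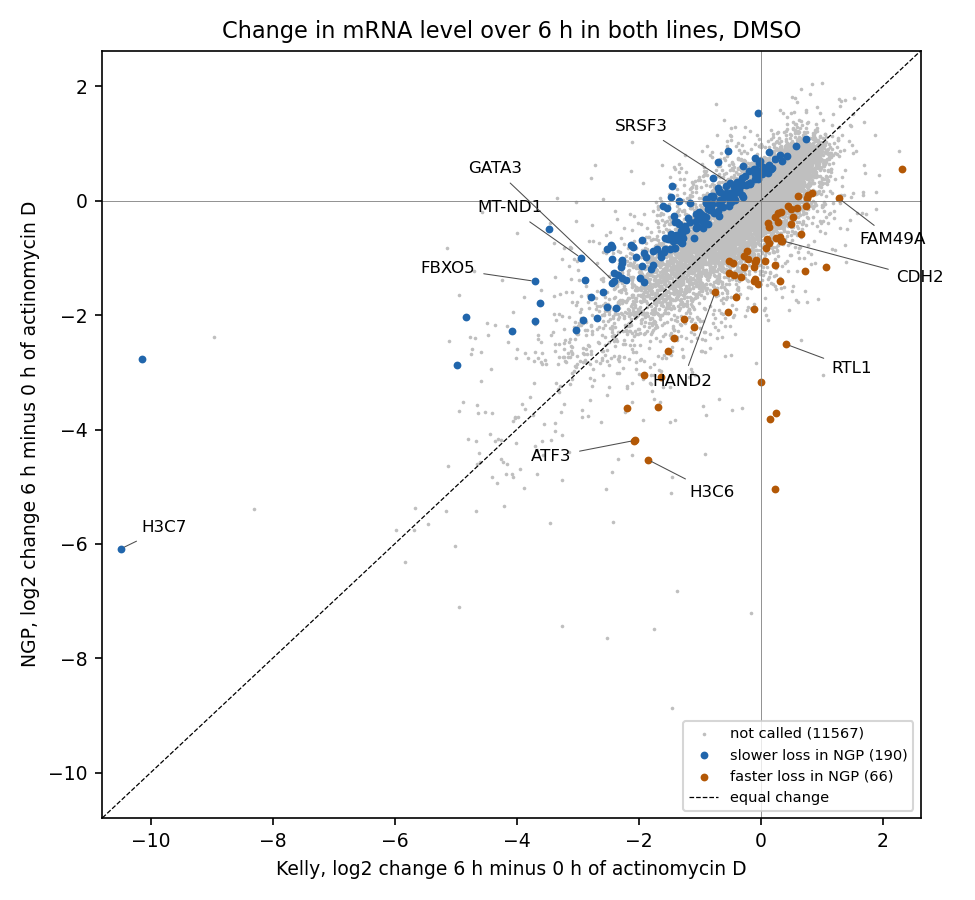
Log2 change from 0 h to 6 h of actinomycin D in Kelly (x axis) and NGP (y axis) for the 11823 genes tested in DMSO; each point is a gene, and the dashed line marks equal change. The 190 genes with slower loss in NGP lie above the line and the 66 with faster loss below it, with H3C7 far to the left because it was nearly absent from Kelly at 6 h.

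RTL1 had the smallest adjusted p of all 256 genes. It encodes a retrotransposon-derived Gag-like protein, is expressed from the paternal allele of an imprinted domain on chromosome 14 and is known from placenta, and microRNAs made from the opposite strand of the same locus are known to cut its mRNA. Those microRNAs were not measured here, but the sequences show what the locus holds. In the canonical RTL1 transcript 10 mature microRNAs had a full-length perfect complement, all within the coding sequence, which lies on the minus strand, and all 10 microRNAs are annotated on the plus strand over their own site. They are the pairs of arms of miR-431, miR-433, miR-127, miR-432 and miR-136. A search of 11611 tested genes with 2370 mature human microRNA entries found such a complement in 20 genes and at least 3 in 2 genes; of the 256 genes that differed, PNRC2 (miR-4261) and MT-ND5 (miR-4463) were the other two, each with a microRNA annotated on another chromosome. One arm of each RTL1 hairpin is shown with its seed (bases 2 to 8) in capitals, and below it its site in the RTL1 coding strand with the seed match in capitals. MicroRNA sequences are from RefSeq (GRCh38.p14) and sites from GENCODE 44 transcripts (GRCh38).
hsa-miR-431-5p: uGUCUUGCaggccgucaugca
site for miR-431-5p, chr14:100881026-100881046: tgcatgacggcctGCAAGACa
hsa-miR-433-3p: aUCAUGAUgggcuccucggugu
site for miR-433-3p, chr14:100881949-100881970: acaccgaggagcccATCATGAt
hsa-miR-127-3p: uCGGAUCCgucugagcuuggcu
site for miR-127-3p, chr14:100883035-100883056: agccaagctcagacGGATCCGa
hsa-miR-432-5p: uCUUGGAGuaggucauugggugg
site for miR-432-5p, chr14:100884496-100884518: ccacccaatgacctaCTCCAAGa
hsa-miR-136-5p: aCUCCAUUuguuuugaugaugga
site for miR-136-5p, chr14:100884716-100884738: tccatcatcaaaacaAATGGAGt

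In Kelly, RTL1 stood at 643 and 726 CPM at 0 h and 911 and 840 CPM at 6 h after 3 days of DMSO, and at 798 and 729 CPM at 0 h and 1025 and 1086 CPM at 6 h after 6 days. In NGP it stood at 25.7 and 28.0 CPM at 0 h and 4.71 and 3.55 CPM at 6 h after 3 days, and at 19.9 and 24.7 CPM and then 4.99 and 3.73 CPM after 6 days. The lines did not overlap at either time, and the level went up in Kelly and down in NGP at both durations. Relative to the typical gene, 133% of RTL1 mRNA was left in Kelly and 17.6% in NGP, a decay difference of -2.92 ± 0.16 (SE, edgeR adjusted p = 1.25e-10). The difference was -3.03 at 3 days, -2.79 at 6 days and -2.87 in the STM2457 libraries. Scaled to ERCC spike-ins instead, the log2 change was -0.45 in Kelly and -3.45 in NGP. Its level at 0 h was lower in NGP by a log2 difference of -4.88. RTL1 lies at chr14:100879753-100903722 (GRCh38), and because the file headers name no strand option, reads from the transcripts opposite to RTL1 cannot be told apart from its own.

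CDH2, which encodes the cell adhesion protein N-cadherin, had a like pattern at both levels and decay. Its level in Kelly was 347 and 299 CPM at 0 h and 444 and 455 CPM at 6 h after 3 days, and 308 and 288 CPM and then 350 and 335 CPM after 6 days. In NGP it was 16.9 and 15.9 CPM at 0 h and 12 and 8.15 CPM at 6 h after 3 days, and 19.6 and 19.5 CPM and then 10.2 and 14.1 CPM after 6 days. All 8 NGP libraries lay below all 8 Kelly libraries, and every 6 h value was above the 0 h values of its duration in Kelly and below them in NGP. The decay difference was -1.05 ± 0.18 (SE, edgeR adjusted p = 0.00332), and it was -1.33 in the STM2457 libraries.

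Other genes lost faster in NGP encode immediate-early and transcriptional regulators. ATF3, a stress-induced transcription factor, kept 24% of its level in Kelly and 5.48% in NGP, a difference of -2.13 ± 0.44 (edgeR adjusted p = 0.0112). It rests on low values, at 0.83 to 2.12 CPM in NGP at 6 h. In NGP it began at 11.1 and 12.1 CPM after 3 days and at 47.9 and 49.1 CPM after 6 days. The difference at 3 days alone was -1.66 and was not called (edgeR adjusted p = 0.281). CITED2, which competes for the coactivators CBP and p300, kept 21.8% and 8.13%, a difference of -1.42 ± 0.32 (edgeR adjusted p = 0.0173). The forkhead factor FOXK1 ran from 139 to 236 CPM in Kelly over both times, while in NGP it went from 179 to 245 CPM at 0 h to 65 to 109.7 CPM at 6 h. Its difference was -1.02 ± 0.15 (edgeR adjusted p = 0.000407), and -0.90 in the STM2457 libraries, where its adjusted p was 7.21e-05. The zinc finger repressor PATZ1 kept 46.6% in Kelly and 21.7% in NGP.

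GPR176, an orphan G protein-coupled receptor, kept 92.8% in Kelly and 26.8% in NGP, with a decay difference of -1.79 ± 0.31 (edgeR adjusted p = 0.00268). MGAT3, which adds the bisecting N-acetylglucosamine to N-glycans, kept 93.8% and 38.9%. TLNRD1, an actin-bundling protein, kept 75.7% and 31.3%. The same direction was seen for ZNF853 (-1.45), REEP4 (-1.29) and ZNF316 (-1.06), but the calls of these 3 genes were lost in 5, 12 and 6 of the 16 refits that each leave out 1 library. In the STM2457 libraries ATF3 had the opposite sign, at 0.20, and ZNF853 a smaller difference, at -0.25.

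FAM49A, which lies beside MYCN on 2p24 and encodes a protein that binds the GTPase RAC1, rose in Kelly and hardly moved in NGP. At 0 h it stood at 24.8 and 20.05 CPM in Kelly after 3 days and 79.8 and 73.8 CPM after 6 days, and at 6 h at 66.8 and 91.0 CPM and at 119.97 and 146 CPM. In NGP the 3-day values were 148 and 139 CPM at 0 h and 136 and 140 CPM at 6 h, and the 6-day values 323 and 319 CPM and then 365 and 344 CPM. The decay difference was -1.23 ± 0.20 (edgeR adjusted p = 0.00184). It was the 1 called member of 8 genes tested on 2p24 around MYCN (12.5%, against 2.17% of all genes), whose median was 0.02. MYCN itself fell in both lines: 10.3% was left in Kelly and 10.6% in NGP, a difference of 0.05 ± 0.18 (edgeR adjusted p = 0.943); its value was 0.33 at 3 days and -0.32 at 6 days.

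Of the genes lost more slowly in NGP, FBXO5 had one of the widest gaps. It encodes EMI1, the inhibitor of the anaphase-promoting complex. In Kelly it went from 66.6 and 60.8 CPM to 1.41 and 4.14 CPM after 3 days, and from 48.4 and 47.7 CPM to 3.80 and 7.37 CPM after 6 days. In NGP it went from 67 and 63.5 CPM to 22.5 and 25.2 CPM, and from 48.8 and 36.2 CPM to 17.1 and 16.1 CPM. The starting levels overlapped between the lines, while all 4 NGP libraries at 6 h lay above all 4 of Kelly. Thus 7.73% was left in Kelly and 37.7% in NGP, a decay difference of 2.29 ± 0.39 (edgeR adjusted p = 0.00226), and it was 1.47 in the STM2457 libraries.

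RND3, a small GTPase, kept 5.94% in Kelly and 20.7% in NGP (difference 1.80 ± 0.35, edgeR adjusted p = 0.00563). BRIX1, a ribosome assembly factor, kept 18.3% and 58.7% (1.68 ± 0.24, edgeR adjusted p = 0.000367). PAPOLG, a nuclear poly(A) polymerase, kept 34.6% and 91.7% (1.41 ± 0.29, edgeR adjusted p = 0.0103). ZNF281, a zinc finger regulator of differentiation, went from 77.6 to 93.0 CPM at 0 h to 16.2 to 22.7 CPM at 6 h in Kelly, and from 62.8 to 79.6 CPM to 38.8 to 43.8 CPM in NGP. Its difference was 1.35 ± 0.16 (edgeR adjusted p = 4.85e-05), and the 6 h values of the lines did not overlap. KIAA1586 kept 39.5% in Kelly and 100.3% in NGP.

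The zinc finger genes ZNF317 (1.83), ZNF92 (1.67) and ZNF850 (1.63) were also lost more slowly in NGP. ZNF317 and ZNF850 belong to the list of KRAB zinc finger genes, which encode DNA-binding repressors that silence transposable elements and whose messages turn over fast. Of 151 KRAB genes tested, ZNF317, ZNF850 and ZNF562 were called with slower loss in NGP and ZNF124 (-0.54) with faster loss, which is 2.65% of the list against 2.17% of all genes. The list's median was 0.26 against 0.06, with 107 genes above 0. KRAB genes are close paralogs, so reads of single members are uncertain where copies are near-identical.

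By the smaller of their values at 3 and 6 days, H3C7 and KCNJ8 head the genes with slower loss, but they rest on low values. KCNJ8, a subunit of an ATP-sensitive potassium channel, was at 0.27 to 1.83 CPM in Kelly and 1.81 to 4.25 CPM in NGP at 6 h. Its call was lost in 13 of the 16 refits without 1 library, and at 3 and 6 days alone (edgeR adjusted p of 0.165 and 0.076). Its decay difference was 2.11 in DMSO and 0.03 in the STM2457 libraries (edgeR adjusted p = 0.985). H3C7, a replication-dependent histone gene, had 1 fragment in all in the 4 Kelly libraries at 6 h and 122 in the 4 NGP libraries, so its fitted value of 4.40 depends on a near-empty group.

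**Figure D2:**
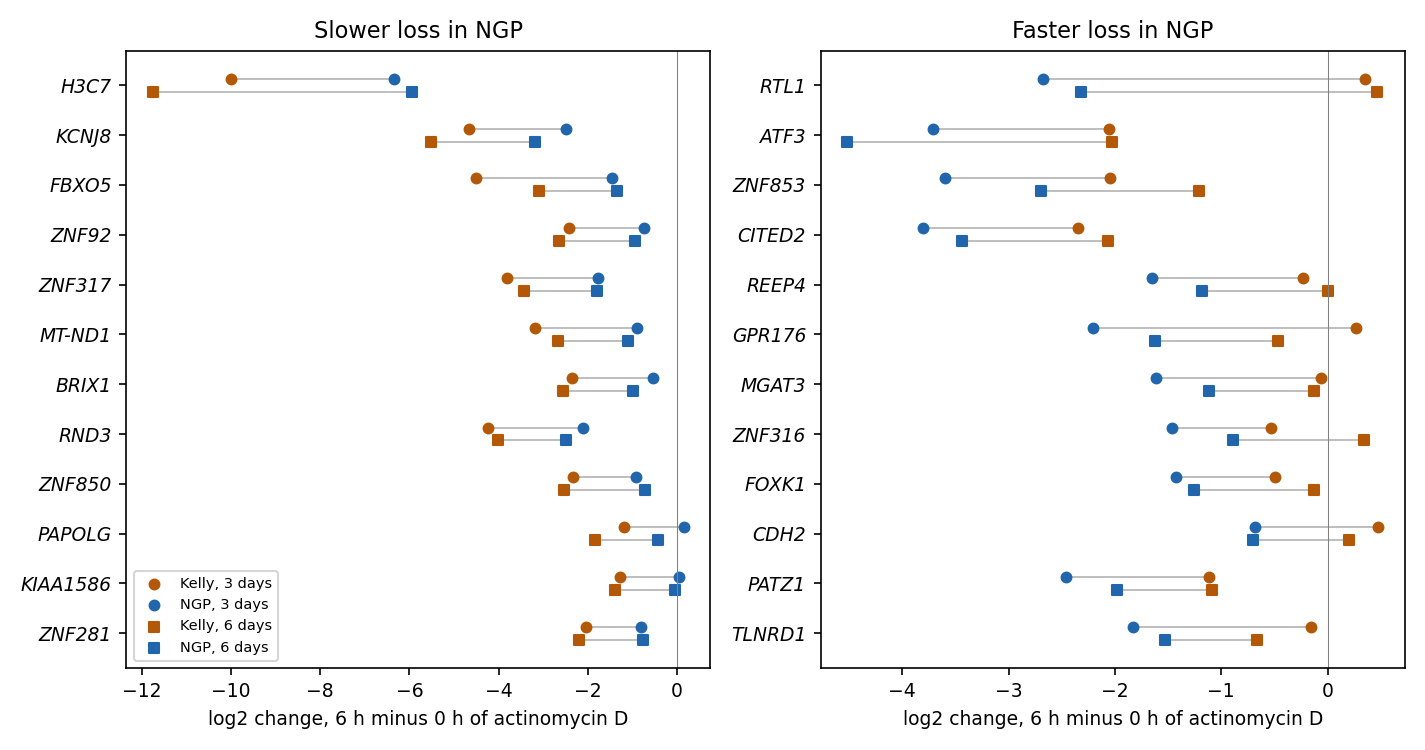
Log2 change from 0 h to 6 h of actinomycin D (x axis) for the 12 genes of slower loss in NGP (left) and the 12 of faster loss (right) with the widest gap at both durations; circles are 3 days and squares 6 days of DMSO, orange is Kelly and blue NGP, each from a fit of group means over the 16 libraries. The gap between the lines has the same direction at both durations, which the choice of these genes required.

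Most mRNAs of the mitochondrial genome were lost more slowly in NGP. These 13 messages encode subunits of the respiratory chain and ATP synthase, are transcribed from circular DNA by a polymerase of their own, and are cut out of long precursors. Of the 13, 10 were called with slower loss in NGP and 0 with faster loss, against 2.17% of all genes, and all 13 passed an unadjusted p under 0.05. Their median decay difference was 0.59, and all 13 values were above 0. DESeq2 called 9 of them and limma-voom 11, all with slower loss in NGP. The 65 nuclear genes of oxidative phosphorylation had a median of 0.04, and edgeR, DESeq2 and limma-voom called 0 of them. An unadjusted edgeR p under 0.05 was seen for 5 of the 65, against 1724 of all 11823 genes tested.

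MT-ND1, the first protein gene of the mitochondrial heavy-strand transcript and a core subunit of complex I (chrM:3307-4262), stood apart from the other 12. In Kelly it went from 4880 and 4366 CPM to 521 and 496 CPM after 3 days, and from 3868 and 4139 CPM to 619 and 634 CPM after 6 days. In NGP it went from 3181 and 3454 CPM to 1698 and 1878 CPM, and from 4542 and 4029 CPM to 2049 and 1936 CPM. The 0 h levels of the lines overlapped and the 6 h levels did not. It kept 13% in Kelly and 49.9% in NGP, a decay difference of 1.94 ± 0.12 (SE, edgeR adjusted p = 8.69e-10), and its value was 2.41 in the STM2457 libraries.

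The next values in size were 0.77 for MT-CYB, 0.69 for MT-CO3, 0.68 for MT-ND4, 0.65 for MT-ND5, 0.64 for MT-ND4L and 0.59 for MT-ND6, the one message of the light strand. MT-ATP6 (0.49), MT-ATP8 (0.46) and MT-CO1 (0.44) were called too. The call of MT-CYB was lost in 9 of the 16 refits without 1 library, and those of MT-ATP6, MT-ATP8 and MT-CO1 in 4 each. MT-CO2 (0.53), MT-ND2 (0.51) and MT-ND3 (0.40) did not pass, with edgeR adjusted p of 0.0671, 0.11 and 0.129. Some messages were short-lived in both lines, among them MT-ND2 with 24.2% left in Kelly and 34.5% in NGP and MT-ND5 with 29.4% and 46.1%. MT-CO1 by contrast was retained, at 110% in Kelly and 149% in NGP.

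The same 13 genes were read in the STM2457 libraries, which share no library with the DMSO comparison. There 12 of 13 were called, all above 0, with a median of 0.65, and MT-CO1 (0.12) was the exception. The calls depend on how libraries are scaled: with ERCC scaling 1 of the 13 was called, with scaling to long-lived messages 3, and with trends on gene length and GC content removed 3. MT-ND1 kept its call under each alternative tried.

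**Figure D3:**
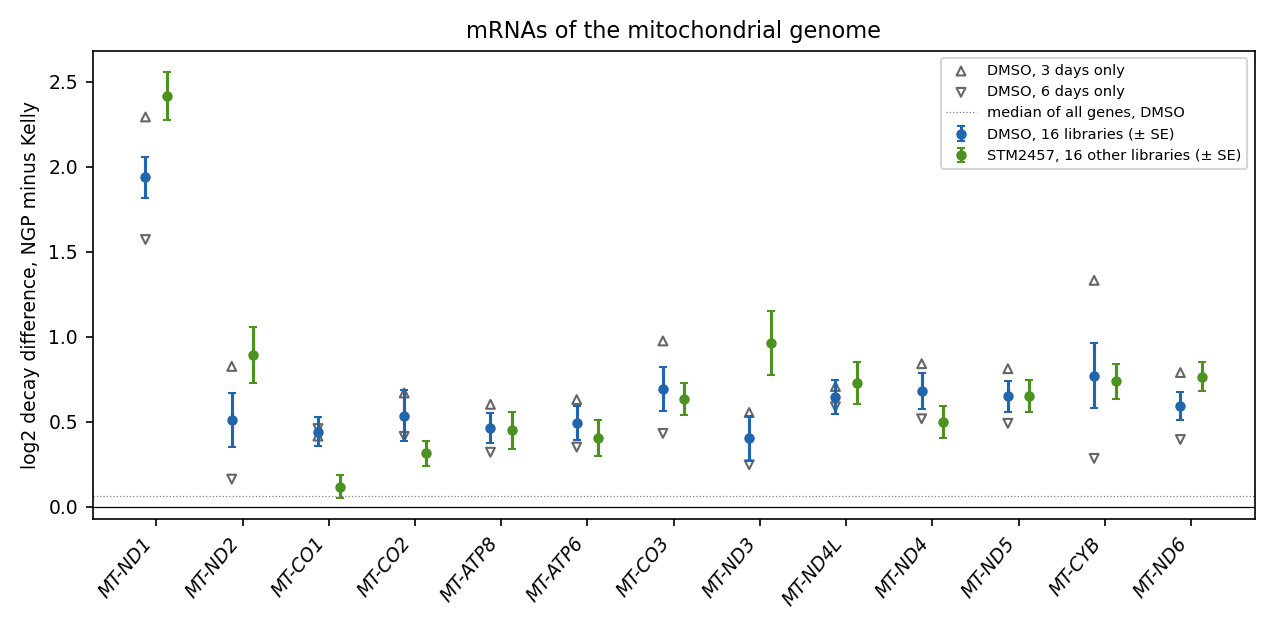
Decay difference, NGP minus Kelly, on the log2 scale (y axis) for the 13 mitochondrial mRNAs, in the order of the heavy-strand genes with MT-ND6 last; filled points with bars are fits over 16 libraries ± SE in DMSO (blue) and STM2457 (green), and open triangles are DMSO fits of 1 duration. All values lie above 0, and MT-ND1 at 1.94 in DMSO and 2.41 in STM2457 stands above the others.

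The adrenergic transcription factors moved in both directions. Of 20 tested, GATA3, GATA2 and ISL1 were called with slower loss in NGP and HAND2 with faster loss (20% of the list, against 2.17% of all genes); the median of the list was 0.37. Scaling to long-lived genes left 1 called in each direction and ERCC scaling 0. GATA3, a zinc finger factor needed for sympathetic neuron development, went in Kelly from 296 and 274 CPM to 41.2 and 61.7 CPM after 3 days, and from 273 and 285 CPM to 58.0 and 51.6 CPM after 6 days. In NGP it went from 444 and 416 CPM to 128 and 153 CPM, and from 363 and 352 CPM to 154 and 158 CPM. The NGP levels were the higher ones at both times, and 18.8% was left in Kelly against 37.7% in NGP. The decay difference was 1.00 ± 0.15 (SE, edgeR adjusted p = 0.000542) and 0.77 in the STM2457 libraries.

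HAND2, a basic helix-loop-helix factor of the same regulatory circuit, showed the reverse. Its Kelly levels were 924 and 923 CPM at 0 h and 551 and 556 CPM at 6 h after 3 days, and 1276 and 1251 CPM and then 743 and 764 CPM after 6 days. Its NGP levels were 1277 and 1263 CPM at 0 h and 385 and 355 CPM at 6 h after 3 days, and 880 and 952 CPM and then 358 and 360 CPM after 6 days. The 0 h levels overlapped between the lines, while every NGP value at 6 h was under every Kelly value. HAND2 thus kept 59.7% in Kelly and 33.2% in NGP, a difference of -0.85 ± 0.18 (edgeR adjusted p = 0.0120), and of -0.93 in the STM2457 libraries. Under edgeR's robust option its call was lost.

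GATA2 kept 12.2% in Kelly and 20.8% in NGP (0.77 ± 0.16, edgeR adjusted p = 0.00875), and ISL1, a LIM-homeodomain factor, kept 13.2% and 23.6% (0.83 ± 0.19, edgeR adjusted p = 0.0211). The ISL1 call was lost in 6 of the 16 refits without 1 library. DBH, the enzyme that makes noradrenaline from dopamine, rose in Kelly to 179% of its starting level and stood at 110% in NGP (-0.70 ± 0.10, edgeR adjusted p = 0.00053). It was the 1 called gene among 7 of catecholamine synthesis and storage (14.3% of the list, against 2.17% of all genes).

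**Figure D4:**
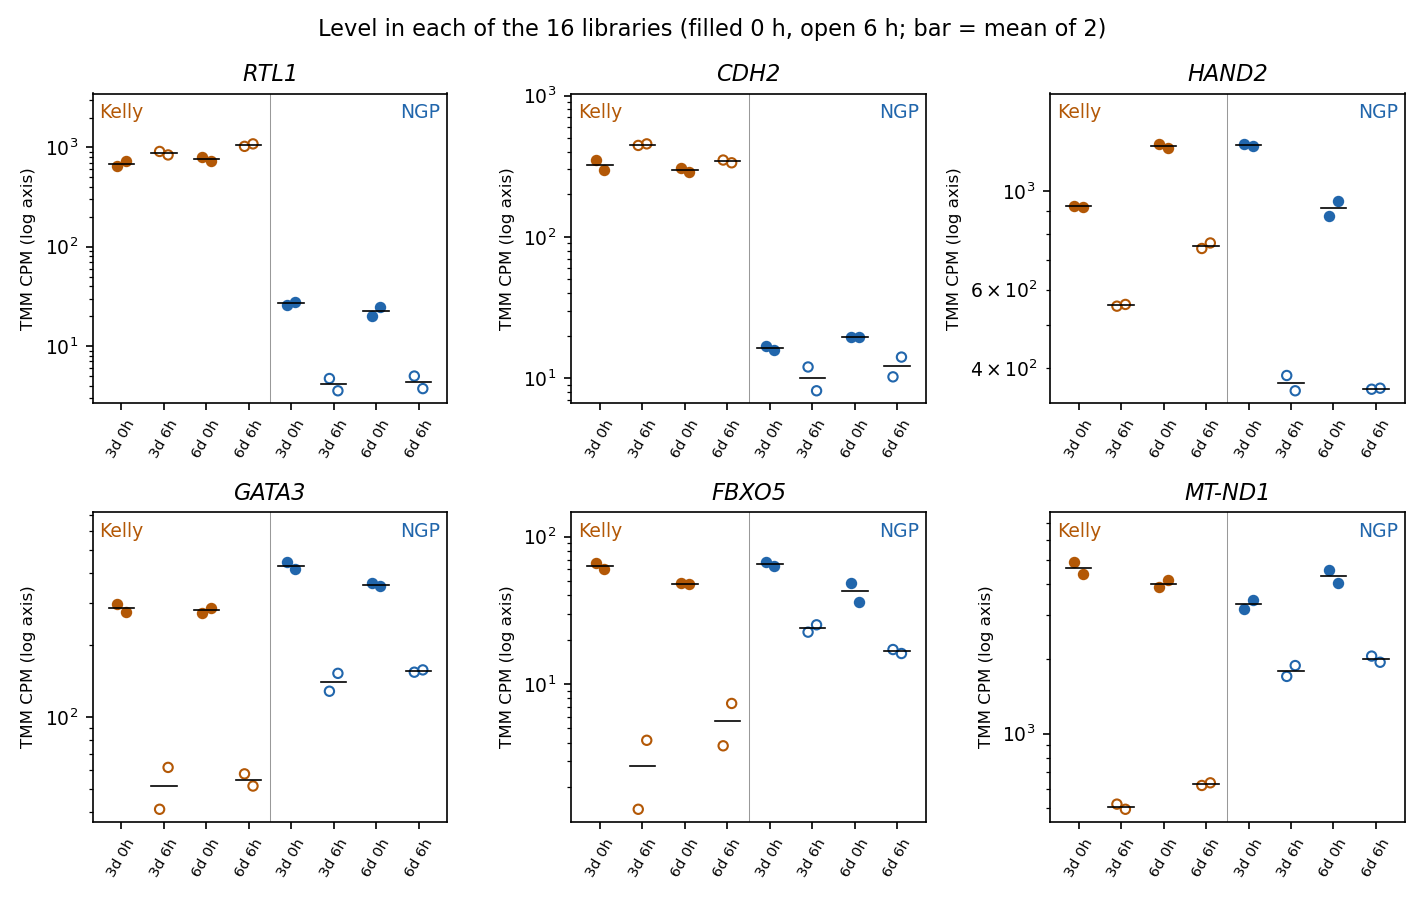
Level in each library as TMM-scaled CPM (y axis, log scale) for 6 genes, by duration of DMSO (3d, 6d) and time in actinomycin D (0h filled, 6h open); Kelly is orange, NGP blue, and bars are means of 2 libraries. On this scale, which is relative to the typical gene, RTL1 and CDH2 go up in Kelly and down in NGP. HAND2 ends lower in NGP, and GATA3, FBXO5 and MT-ND1 end higher in NGP.

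Part of the genes of G2 and mitosis were lost more slowly in NGP. Of 45 tested, 7 were called, all with slower loss in NGP (15.6%, against 1.61% of all genes), and 39 values were above 0 with a median of 0.35 against 0.06 over all genes; limma-voom called 11 and DESeq2 7. AURKA, the centrosomal mitotic kinase, went from 63.3 to 105 CPM at 0 h to 15.7 to 30.3 CPM at 6 h in Kelly, and from 24.1 to 64.1 CPM to 17.4 to 32.2 CPM in NGP. It kept 26.0% in Kelly and 61.9% in NGP (1.25 ± 0.24, edgeR adjusted p = 0.00545), with the same value of 1.25 in the STM2457 libraries. MKI67, the proliferation marker Ki-67, kept 63.3% and 98.1% (0.63 ± 0.09, edgeR adjusted p = 0.000425).

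The other called members were the spindle checkpoint kinase TTK (0.86), the kinesin KIF23 (0.74), the cytokinesis scaffold ANLN (0.68), cyclin A2 or CCNA2 (0.64) and the kinesin CENPE (0.54). KIF23, CENPE and ANLN lost their calls in 13, 11 and 10 of the 16 refits without 1 library. Scaling to long-lived genes left 2 of the 45 called and ERCC scaling 0. The 43 genes of DNA replication held 0 called genes by edgeR, DESeq2 and limma-voom, with a median of 0.06. At an unadjusted edgeR p under 0.05 they held 10, against 1724 of all 11823 genes tested.

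Messages for splicing and RNA decay factors came next. Of 22 SR proteins and CLK kinases, which bind exons and set splice site choice, SRSF3, SRSF7, SRSF2 and TRA2B were called, all with slower loss in NGP (18.2%, against 1.61% of all genes). Scaling to long-lived genes left 2 of them called and ERCC scaling 0. SRSF3 fell in Kelly from 312 and 299 CPM to 222 and 241 CPM after 3 days and from 237 and 225 CPM to 144 and 155 CPM after 6 days, and rose in NGP from 334 and 317 CPM to 439 and 403 CPM and from 267 and 282 CPM to 313 and 341 CPM. Relative to the typical gene, the directions were opposite in the lines at both durations. Its difference was 0.82 ± 0.11 (edgeR adjusted p = 0.000202), and that of SRSF7 was 0.69 ± 0.12 (edgeR adjusted p = 0.00375). SRSF2 (0.64) shares 36.7% of its exon bases with MFSD11, so its reads are uncertain, and its call was lost in 6 of the 16 refits without 1 library.

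Among 56 genes of deadenylation, decapping and decay, 4 were called, all with slower loss in NGP (7.14%, against 1.61% of all genes). RLE scaling left 2 of the 56 called and ERCC scaling 0. CNOT2, a scaffold of the CCR4-NOT deadenylase, went from 66.1 to 75.8 CPM to 21.5 to 31.9 CPM in Kelly and from 966 to 1007 CPM to 653 to 680 CPM in NGP. It kept 36.2% in Kelly and 67.3% in NGP (0.89 ± 0.13, edgeR adjusted p = 0.000378), and its 0 h level was higher in NGP by 3.76 on the log2 scale. The others were TOB1, an adaptor of the same deadenylase (1.09, call lost in all 16 refits without 1 library), the exosome subunit EXOSC9 (0.80, lost in 13) and the decapping helicase DDX6 (0.64, lost in 0).

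Of 54 RNA-binding proteins of mRNA stability, the microRNA effector TNRC6C (0.77) and the neuronal ELAVL3 (0.68) were lost more slowly in NGP, and UPF1, the helicase of nonsense-mediated decay, faster (-0.60). Together they are 5.56% of the list, against 2.17% of all genes. ERCC scaling left 0 of the 54 called. The ELAVL3 and UPF1 calls were lost in 3 and 5 of the 16 refits without 1 library. Of 20 genes of the m6A machinery, WTAP (0.62), a subunit of the writer complex, and YTHDF2 (0.65), a reader that recruits deadenylases, were called with slower loss in NGP, which is 10% of the list against 1.61% of all genes; 19 of the 20 values were above 0 and the median was 0.18. The WTAP call was lost in 9 and the YTHDF2 call in 13 of the 16 refits without 1 library, and scaling to long-lived genes or to ERCC left 0 of the 20 called. METTL3 itself kept 104% in Kelly and 109% in NGP (0.06 ± 0.19, edgeR adjusted p = 0.926). PTBP1 (0.42) was the called gene of 25 hnRNP proteins, PDIA3 (0.39) of 21 ER chaperones, INA (0.36) of 29 neuronal cytoskeleton genes and HES6 (-0.92) of 13 ID and Notch genes. With 2.17% of all genes called, 1 call in lists of this size is near the background, and these calls were lost in 7, 12, 13 and 6 of the 16 refits without 1 library.

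Short-lived and long-lived lists served as a reference for the drug's action. The 22 short-lived regulators had a median change of -2.37 in Kelly and -2.16 in NGP, and TOB1 was called with slower and ATF3 and CITED2 with faster loss in NGP. These calls are 13.6% of the list, against 2.17% of all genes. With RLE, library size, long-lived gene or ERCC scaling, 0 of the 22 were called with slower and 2 with faster loss. By limma-voom 1 was called with slower and 0 with faster loss. The 19 long-lived housekeeping genes rose in both lines relative to the typical gene, all 19 in each, with medians of 0.75 and 0.91. GAPDH kept 196% in Kelly and 192% in NGP, and ACTB 167% and 188%. Neither passed the test of a difference between the lines by edgeR (adjusted p of 0.903 and 0.312), with differences of -0.04 ± 0.08 and 0.16 ± 0.08. The list was not steady between durations: 9 of the 19 were called with slower loss in NGP at 6 days (2.59% of all genes), with a median of 0.35, and 0 at 3 days, with a median of 0.00. ACTB was among the 9, at 0.35 (edgeR adjusted p = 0.00899), and 6 of the 19 were called for the dependence on duration.

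Over all genes, 1724 of the 11823 tested had an unadjusted edgeR p under 0.05. Several lists held 0 called genes by edgeR. At an unadjusted edgeR p under 0.05 they held 4 of 78 for ribosomal proteins (median 0.00), 5 of 23 for p53 targets (0.03), 4 of 17 for G1 cyclins and their partners (0.13), 5 of 35 for axon guidance (-0.02), 0 of 16 for neurotrophic and growth factor receptors (-0.17), 4 of 30 for let-7 targets (-0.02) and 1 of 13 for HOX genes (0.22). DESeq2 called 2 axon guidance genes, 1 HOX gene and 1 let-7 target, and limma-voom 1 axon guidance gene, 1 let-7 target and 1 gene of the G1 list.

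What the called genes share beyond the test was read from their sequences. Genes with slower loss in NGP had a median GC content of exons of 43.1%, those with faster loss 56.9% and the genes not called 47.9%. At the third codon position the medians were 47.1%, 76.2% and 59.1%. The 3′ UTRs had median lengths of 1537, 1239 and 1415 bases and a median AU content of 63.9%, 46.6% and 57.7%. The AU-rich element TATTTAT was found in 42.5% of the 3′ UTRs of genes with slower loss, 18.5% of those with faster loss and 36.9% of those not called; for the shorter ATTTA, which lies within TATTTAT, the shares were 87.2%, 58.5% and 74.1%. The let-7 seed match CTACCTC was in 12.3%, 13.8% and 11.2%. Motifs were read on the transcript strand only. When trends on gene length and GC content were removed from each library, 156 genes were called, 95 with slower and 61 with faster loss in NGP, and 142 of them were among the 256.

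Between genes with slower loss and genes not called, the motif of Pumilio proteins, TGTANATA, showed the widest gap of the 4 motifs searched; between slower and faster loss, those of ATTTA and TATTTAT were wider. Pumilio proteins bind it in 3′ UTRs and recruit the CCR4-NOT deadenylase. It was in 50.8% of the 3′ UTRs of genes with slower loss in NGP (179 genes with an annotated 3′ UTR), in 27.7% of those with faster loss (65 genes), and in 31.3% of those not called (11346 genes). Put the other way, 91 of 3664 tested genes with the motif (2.48%) and 88 of 7926 without it (1.11%) were called with slower loss in NGP. AU-rich and long UTRs hold the motif more often, so the shares were also read at like composition and length, for 3′ UTRs of 500 to 3000 bases. Under 50% AU, 4 of 11 genes with slower loss held it (36.4%) and 6 of 24 with faster loss (25%), against 310 of 1930 not called (16.1%). At 50 to 60% AU, 14 of 27 genes with slower loss held it (51.9%), against 360 of 1573 not called (22.9%); at 60 to 65% AU, 10 of 20 against 420 of 1168 (36.0%); at 65% AU or more, 24 of 51 (47.1%) against 663 of 1443 (45.9%). The shares for slower loss and for genes not called were closest in the most AU-rich UTRs. Faster loss lay below the genes not called over all UTRs. At 500 to 3000 bases it lay above them under 50% AU, at 50 to 60% (3 of 10, 30%) and at 65% or more (2 of 2). It lay below them at 60 to 65% (0 of 3). Some of these classes hold few genes. A match describes letters, not binding.

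The sites of some genes described above are shown, with the motif in capitals, because FBXO5 and TTK each hold 2 within a short 3′ UTR of 628 and 325 bases. The sequences are from GENCODE 44 canonical transcripts (GRCh38).
FBXO5 site 1, minus strand, chr6:152970600-152970623: tgtatacaTGTAAATAtttctgta
FBXO5 site 2, minus strand, chr6:152970552-152970575: ctcttgtaTGTACATAtaaaaata
TTK site 1, plus strand, chr6:80042372-80042395: tatggcacTGTATATAttgtagac
TTK site 2, plus strand, chr6:80042481-80042504: aaaaacttTGTAAATAaagttttg
BRIX1 site, plus strand, chr5:34925544-34925567: attcaatgTGTAAATActtttatt
ZNF92 site, plus strand, chr7:65400507-65400530: taagtctaTGTAAATAtcagaatt
CNOT2 site, plus strand, chr12:70354645-70354668: tacgaatgTGTATATAttatatat

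Among the other nuclear genes that the rules named with slower loss in NGP, EXOSC9, KIF23, PAPOLG, PTBP1, TNRC6C and ZNF850 also held a match. ZNF562 held 3, in a 3′ UTR of 11142 bases. No match was found in the 3′ UTRs of GATA3, RND3, ZNF281, ZNF317, AURKA, SRSF3, SRSF2, SRSF7 or ISL1. Those of H3C7, KCNJ8, KIAA1586, TOB1, INA, PDIA3, ELAVL3, YTHDF2 and WTAP held none either.

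The differences were then read in libraries that the comparison had not used. Of the 256 genes, 255 could be tested in the 16 STM2457 libraries, where 357 of 11775 genes differed between the lines (3.03%), 217 with slower (1.84%) and 140 with faster loss in NGP (1.19%). The sign was the same for 243 of the 255 (95.3%), against 62.4% of all genes tested in both, and 107 were called there with the same sign: 80 with slower and 27 with faster loss in NGP. The differences were smaller there: the median over the genes with slower loss was 0.43 against 0.70 in DMSO, and over those with faster loss 0.57 against 0.97 in size. These genes had been picked for their values in DMSO. Between DMSO and STM2457 the decay difference itself changed for 35 of 11836 genes (0.296%), with a higher value under STM2457 for 24 (0.203%) and a lower one for 11 (0.0929%), of which 3 were among the 256: MT-ND1, FAM49A and RGS5.

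The 3-day and 6-day DMSO libraries are 2 separate sets of 8. At 3 days 184 genes differed between the lines (1.56%), 135 with slower (1.14%) and 49 with faster loss in NGP (0.414%), and 151 of them (82.1%) had the same sign at 6 days. At 6 days 505 differed (4.27%), 306 with slower (2.59%) and 199 with faster loss in NGP (1.68%), and 356 of them (70.5%) had the same sign at 3 days; over all genes the share was 57.6%. A total of 63 genes were called at both durations with the same sign, which is 34.2% of the first set and 12.5% of the second. The difference between the lines itself depended on duration for 121 genes (1.02%), 39 with a higher (0.33%) and 82 with a lower value at 6 days (0.694%).

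At 3 h of actinomycin D, in the 24 DMSO libraries, 166 of 11809 genes differed between the lines (1.41%), 121 with slower (1.02%) and 45 with faster loss in NGP (0.381%). This comparison shares its 0 h libraries with that at 6 h, so the values are set side by side with no test between them. At 3 h and 6 h they were -2.003 and -2.92 for RTL1, -1.22 and -1.05 for CDH2, 1.58 and 1.94 for MT-ND1, and 1.20 and 2.29 for FBXO5. They were 0.86 and 1.00 for GATA3 and -0.69 and -0.85 for HAND2. Not all genes named here kept their value at 3 h. H3C7 had the opposite sign there, at -1.58 (edgeR adjusted p = 0.00366) against 4.40 at 6 h. Small values at 3 h were seen for KCNJ8 (0.05 against 2.11), ZNF317 (0.31 against 1.83), TNRC6C (0.11 against 0.77) and PDIA3 (-0.005 against 0.39).

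ATF4 targets made up 13 of those 82. ATF4 is a transcription factor of the amino acid and endoplasmic reticulum stress responses, and its targets include amino acid transporters and synthetases. Of 26 tested, edgeR called 0 over the 16 libraries, although 25 values were below 0. An unadjusted edgeR p under 0.05 was seen for 16 of the 26, against 1724 of all 11823 genes tested. DESeq2 called 1 and limma-voom 2, with faster loss in NGP. At 3 days the median was 0.13, with 1 called in each direction, while at 6 days it was -1.21 with 21 called, all with faster loss in NGP (against 1.68% of all genes at 6 days). The summed level of the list at 0 h was 5345 and 5527 CPM in NGP after 6 days, against 2390 and 2444 CPM in Kelly and 2388 and 2358 CPM in NGP after 3 days and 2635 and 2504 CPM in Kelly after 6 days. By 6 h the NGP 6-day libraries stood at 2516 and 2585 CPM, inside the range of the other 6 h libraries, 2204 to 2719 CPM. The NGP libraries of 6 days thus began above all others and ended within their range.

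ASNS, which makes asparagine, followed the list. In NGP after 6 days it went from 284 and 265 CPM to 140 and 132 CPM, and after 3 days from 93.8 and 88.0 CPM to 145 and 134 CPM. In Kelly it rose at both durations, from 86.9 and 103 CPM to 124 and 136 CPM and from 158 and 152 CPM to 215 and 208 CPM. The decay difference was 0.16 at 3 days and -1.46 at 6 days, a change of -1.62 ± 0.20 (SE, edgeR adjusted p = 3.3e-05).

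**Figure D5:**
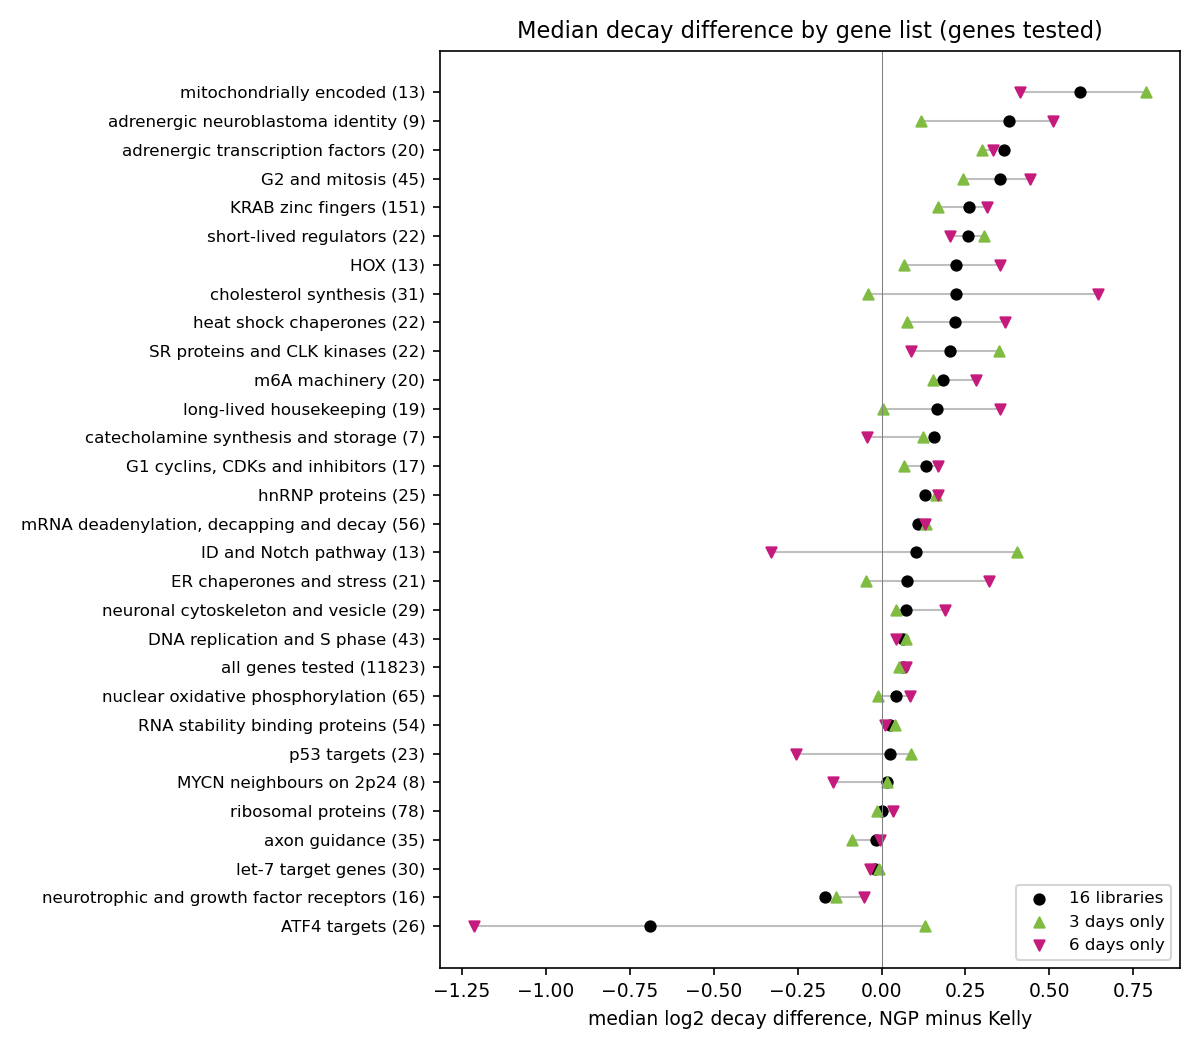
Median decay difference, NGP minus Kelly, on the log2 scale (x axis) for each gene list with at least 7 genes tested (number in brackets); black circles are the fit over 16 libraries, green triangles 3 days and pink triangles 6 days of DMSO alone. Among the circles the mitochondrially encoded list is highest, at 0.59, while at 6 days alone cholesterol synthesis is higher (0.65 against 0.41); the ATF4 target list lies at 0.13 at 3 days and -1.21 at 6 days.

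The values above have limits that touch all of them. RNA was selected by its poly(A) tail, so loss of the tail and loss of the message cannot be told apart. Scaling to the ERCC spike-ins left 39 genes called (13 with slower and 26 with faster loss in NGP), among them RTL1, CDH2, FAM49A, FBXO5, MT-ND1, RND3, BRIX1, ZNF281 and FOXK1 but not GATA3, HAND2, DBH, AURKA, CNOT2, SRSF3, PAPOLG, KIAA1586 or TLNRD1. With that scaling the median gene fell by 0.89 in Kelly and 0.94 in NGP on the log2 scale.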

How the data were processed

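Libraries were made from oligo(dT)-selected RNA of both lines with a SMART kit after TRIzol extraction, per the labels' protocols. The authors deposited raw fragment counts per gene name. Per the file headers, featureCounts 1.5.3 summed fragments over exons, against GENCODE 33 protein-coding genes and 92 ERCC spike-ins, and the headers name no strand option. The submitters' processing notes name GRCh38, HISAT2 2.1.0, Subread 1.5.3, Trimmomatic 0.36 and FastQC 0.11.5. When the spike-ins were added is not given in the sources used here. Of the 19923 gene names, 18 lie on more than 1 chromosome and were counted together.

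The 6 h and 0 h counts were compared by edgeR 4.0.16 (R 4.3.3, quasi-likelihood, TMM scaling) on the 16 DMSO libraries, with terms for line, time, duration and line by time and 11 residual degrees of freedom. Genes entered with filterByExpr by group (minimum count 10, minimum total 15) and a mean of at least 1 CPM at 0 h in each line. P-values were Benjamini-Hochberg adjusted over all genes tested, with a threshold of 0.05. The same model was fitted on the STM2457 libraries and on each duration alone, and fits of group means tested the dependence on duration and drug. SEs are the absolute log2 value divided by the square root of F. No label tells separate cultures from repeat libraries of 1 culture, so the spread between replicates may be technical. Duration is an additive term in the model. The p-values thus measure that spread together with differences between durations that the term does not cover. A fit of 8 group means called 793 genes and a duration effect for each line 439, against 256. A gene without a call can therefore be one whose difference varied between durations. Replicates differed by more than sampling noise in all 8 groups.

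Named genes were the 12 in each direction with the largest smaller value at 3 and 6 days, among genes called in the 16-library fit that had the same sign at both durations (called at either or not), at least 10 CPM at 0 h in both lines and under 5% of exon bases shared with another gene; up to 3 called members of each of 32 gene lists with at least 5 CPM; and MYCN, METTL3, GAPDH and ACTB. For the duration dependence the rule also named MT-CYB and H1-4. All other genes were named after their values were seen, among them PNRC2, ASNS and the rest of the mitochondrial list. The members and lists were chosen with earlier results of these data known. Alternatives were RLE, library size, upper quartile, long-lived gene and ERCC scaling, other filters, DESeq2 1.42.0, limma-voom (limma 3.58.1), robust estimation, other designs, replicate blocks, removal of length and GC trends, and leaving out each library. Sequences were matched to the GRCh38 genome and GENCODE 44, which gave a canonical coding transcript for 18999 of the gene names; all 25 chromosomes matched by name and no exon ran past a chromosome end. On simulated data with 200 changed genes among 11823, the DMSO comparison found 56% of 2-fold and 84% of 4-fold changes, and 7.89% of its calls were false.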

Additional observations from a re-analysis of the deposited data

Results flagged for a closer look

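The line difference in decay differed between 3 and 6 days of DMSO for 121 genes, by the edgeR test of the difference itself, and between STM2457 and DMSO for 35 genes. Among the genes named here, the value at 6 days minus that at 3 days was -0.72 for MT-ND1, -0.66 for MT-ND2, -0.54 for MT-CO3 and -1.05 for MT-CYB, 4 of the 13 mitochondrial messages. MT-CYB moved from 1.33 at 3 days to 0.28 at 6 days: in Kelly it went from 3320 and 3144 CPM to 1156 and 1099 CPM at 3 days, and from 3959 and 4292 CPM to 2780 and 2699 CPM at 6 days, while in NGP it stood between 2870 and 4427 CPM throughout.

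The linker histone gene H1-4 had the widest shift among those named here, -2.72, from 1.47 at 3 days to -1.26 at 6 days. In Kelly it stood at 4.86 and 4.003 CPM at 6 h after 3 days and at 17.5 and 21.8 CPM after 6 days.

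In the ATF4 group the shift was -1.07 for ATF4, -1.62 for ASNS, -1.59 for the amino acid transporter SLC7A5 and -1.33 for the serine synthesis enzyme PSAT1. The opposite shift was seen for HSPA5, the main chaperone of the endoplasmic reticulum, at 1.40, for the cholesterol synthesis enzyme HMGCS1 at 1.32, for FAM49A at 1.22 and for ACTB at 0.38. MYCN shifted by -0.64, from 0.33 at 3 days to -0.32 at 6 days.

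Between drugs, the decay difference under STM2457 was higher than under DMSO by 0.51 for MT-ND1, 0.60 for ATF4, 0.77 for ASNS, 0.99 for SLC7A5 and 0.89 for PSAT1, and lower for FAM49A, by -1.18.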

How the results depend on the processing

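Each of the 5 other scalings kept the sign of all 256 called genes, but not their number. Against 256 genes (190 with slower and 66 with faster loss in NGP, 74.2% slower), RLE scaling called 213 (129 and 84, 60.6%), library size 203 (114 and 89, 56.2%), upper quartile scaling 224 (139 and 85, 62.1%), scaling to long-lived genes 141 (64 and 77, 45.4%) and ERCC scaling 39 (13 and 26, 33.3%). No filter on low counts gave 636 genes (356 and 280), DESeq2 373 (221 and 152), 8 group means 793 (553 and 240), a duration effect for each line 439 (321 and 118) and 6 days alone 505 (306 and 199). Removing the length trend gave 200 (115 and 85), removing the length and GC trends 156 (95 and 61), and 3 h in place of 6 h, chosen after seeing the data, 166 (121 and 45). These 2 trend settings changed the sign of 1 and 2 of the 256. ERCC scaling raised the genes with a dependence on duration from 121 to 1946. The cause was not tested. Leaving out each library in turn gave 156 to 227 genes, 93 to 171 with slower and 35 to 82 with faster loss. The total moved by over 1.5 times without Kelly 6-day 0 h replicate 2 (165), NGP 3-day 6 h replicate 1 (166) or 2 (170), or NGP 6-day 0 h replicate 2 (156). Genes with slower loss did so without Kelly 3-day 6 h replicate 1 (107) or 2 (111), Kelly 6-day 6 h replicate 1 (117), NGP 3-day 6 h replicate 1 (93) or 2 (95), NGP 6-day 0 h replicate 2 (116) or NGP 6-day 6 h replicate 2 (96). Genes with faster loss did so without Kelly 6-day 0 h replicate 1 (41) or 2 (35), or NGP 6-day 0 h replicate 2 (40).

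Of the 69 named genes with a call, 40 kept it in all 16 refits without 1 library and 9 in all other alternatives. With the length trend removed, and with the length and GC trends removed, MT-ATP8 was at -0.28 and -0.42 and MT-ND3 at -0.13 and -0.26; MT-ND4L was at -0.048 with both trends removed. The remaining sign changes were in genes with no call. MYCN was at -0.0053 with RLE, -0.017 with library size, -0.067 with long-lived scaling, -0.095 with ERCC, -0.020 with limma-voom, -0.0067 with DESeq2, -0.32 at 6 days alone, -0.019 without the length trend, and -0.099 to 0.176 without 1 library. METTL3 was at -0.0018 with library size, -0.023 with long-lived scaling, -0.14 at 6 days alone, -0.0035 without the length trend, -0.042 without both trends, and -0.12 to 0.16 without 1 library. GAPDH ran from -0.12 to 0.016 without 1 library. H1-4 was at 0.10 with 8 group means, 1.47 at 3 days alone, and -0.42 to 0.26 without 1 library. At 3 days alone ACTB was at -0.022, ATF4 at 0.10, ASNS at 0.16, SLC7A5 at 0.12 and PSAT1 at 0.091, and at 6 days alone HSPA5 was at 0.42. The medians of 9 lists and of all genes changed sign in at least 1 setting, with all such values between -0.09 and 0.10.

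Deviations of same-numbered replicates at 0 h and 6 h were uncorrelated over genes (-0.0011, -0.035, -0.021 and 0.013 in the 4 sets). This cannot show whether the numbers pair the libraries, because noise of single libraries could hide a shared culture. A replicate block within line and duration called 292 genes (217 and 75), and a replicate block common to all groups 223 (172 and 51). Depth limits the genes with few fragments at 6 h.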

Other observations

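Replication-dependent histone genes, whose messages mostly end in a stem-loop instead of a poly(A) tail, were read as a group after their values were seen. Of 53 tested, 52 fell in Kelly and 53 in NGP over 6 h. The decay difference was called with slower loss in NGP for 1, H3C7 (1.61% of all genes), and with faster loss for 3 (0.558% of all genes): H3C6 (-2.67), H2BC6 (-2.12) and H4C3 (-0.98). H3C6 went from 5.00 to 14.1 CPM at 0 h to 0.99 to 3.60 CPM at 6 h in Kelly, and from 79.0 to 95.4 CPM to 3.38 to 4.24 CPM in NGP. The group's median was 0.48 at 3 days and -1.13 at 6 days, and the dependence on duration was called for 18 of the 53, all with a lower value at 6 days (against 0.694% of all genes). In Kelly the median change was -5.07 at 3 days and -3.34 at 6 days, and in NGP -4.43 and -4.52. Histone genes share much of their sequence, so reads may be split between them.

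Of the cholesterol synthesis genes, 0 of 31 were called by edgeR, DESeq2 or limma-voom over the 16 libraries. An unadjusted edgeR p under 0.05 was seen for 8 of the 31, against 1724 of all 11823 genes tested. The median of the list was -0.04 at 3 days and 0.65 at 6 days, with 10 called at 6 days with slower loss in NGP (2.59% of all genes), and 1 called at 3 days with faster loss. The dependence on duration was called for 5, all with a higher value at 6 days. Their summed level in NGP after 6 days went from 4846 and 4915 CPM at 0 h to 7976 and 8076 CPM at 6 h, and in Kelly from 5258 and 5159 CPM to 6876 and 7068 CPM.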
